A study of Mus musculus with 4 samples.

Results

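The genes described here are 34 mouse genes whose products work in G2 phase and mitosis. They were taken by name: Mki67, Top2a, Ccnb1, Ccnb2, Ccna2, Cdk1, Cdc20, Bub1, Bub1b, Aurka, Aurkb, Plk1, Birc5, Cenpa, Cenpe, Cenpf, Kif11, Kif20a, Kif20b, Kif23, Kif2c, Tpx2, Ube2c, Nusap1, Hmmr, Ckap2, Ckap2l, Anln, Ect2, Cdca3, Cdca8, Tacc3, Smc4 and Ndc80. All 34 were found among the 32285 genes counted, and no threshold on expression was set. Their transcripts were counted in single cells of crypts from the distal small intestine, in 8 mice of genotype Lgr5-EGFP-IRES-CreERT2;Rosa26-mTmG, in a study of how Lgr5+ stem cells give rise to secretory cells. In these mice 4-OH-tamoxifen activates a Cre recombinase made in cells that express Lgr5, the marker of crypt base stem cells, and recombination turns on a green fluorescent reporter in the cell and its descendants. The sorted groups were GFP-high clones traced for 72 h (mice 5 to 8), GFP-negative control cells of the same 4 mice, GFP-high clones traced for 48 h (mice 1 to 4), and GFP-negative control cells of those 4 mice. Control cells thus carried the same alleles and had received the same drug. The Lgr5 locus also makes EGFP, which a sorter cannot tell from reporter GFP, and the gate may therefore have selected partly for Lgr5 expression. Villi had been scraped off, and the sort was on EpCAM, with CD31, CD45 and DAPI stains. Mouse age and sex are not given in the sources used here.

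A cell that has copied its DNA in S phase passes through G2 and divides in mitosis. Entry is driven by cyclin-dependent kinase with cyclins A and B, chromosomes condense and attach to the spindle through kinetochores, and the anaphase-promoting complex then marks cyclin B and securin for destruction so that the sister chromatids part. Many of the genes are transcribed late in the cycle, as part of a programme that the DREAM, B-MYB and FOXM1 regulators control through promoter elements known as CHR and CCAAT boxes. In the intestinal crypt, stem cells and transit-amplifying cells divide, whereas goblet, Paneth, enteroendocrine and tuft cells and enterocytes are known as post-mitotic.

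Promoters of the genes are shown first because the genes are known for shared elements there. RefSeq promoter entries (GRCm38.p6, 250 bases before to 50 after the annotated start) were found for 29 of the 34 genes and not for Kif20a, Tpx2, Aurkb, Smc4 and Ccna2. The letters TTTGAA, the usual core of a CHR element, were in 23 of the 29 promoters on either strand (79.3%), against 18.1% of the 27025 genes with an entry. The alternative core TTTAAA, which reads the same on both strands, was in 9 (31.0%, against 13.2% of all genes). CCAAT was in 22 on either strand (75.9%, against 37.9%), and 16 had at least 2 of them (55.2%, against 12.2%). One of the CHR cores from 100 bases before the start onwards, together with a CCAAT anywhere in the window, was found in 20 of the 29 promoters (69.0%) and in 5.04% of all genes. The E2F-type letters TTTGGCGC and TTTCCCGC were in 0 of the 29, against 0.537% and 1.11% of all genes, which says only that these letters are not in these windows. A match of one motif shared bases with a match of another in 1 of the 29 promoters, that of Cdca8, and a match is a description of the sequence, not a binding site. The 5 promoters below belong to genes whose levels are followed through the cell classes, and capitals mark these CHR cores and CCAAT boxes, written as their reverse complement where the match lies on the other strand.
Ccnb1 (chr13:100786437-100786736, minus strand): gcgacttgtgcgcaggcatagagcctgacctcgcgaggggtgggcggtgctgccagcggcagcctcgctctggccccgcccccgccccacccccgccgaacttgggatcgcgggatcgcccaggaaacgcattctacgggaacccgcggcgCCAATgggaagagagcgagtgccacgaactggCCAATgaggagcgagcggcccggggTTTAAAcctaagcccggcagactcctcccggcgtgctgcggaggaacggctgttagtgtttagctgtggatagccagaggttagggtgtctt
Cdk1 (chr10:69352863-69353162, minus strand): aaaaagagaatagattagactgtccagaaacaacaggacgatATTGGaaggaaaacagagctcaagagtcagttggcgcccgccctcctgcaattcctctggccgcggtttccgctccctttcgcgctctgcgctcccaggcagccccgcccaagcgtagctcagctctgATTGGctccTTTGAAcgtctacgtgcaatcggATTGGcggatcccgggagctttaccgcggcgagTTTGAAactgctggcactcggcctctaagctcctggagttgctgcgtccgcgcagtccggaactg
Cdc20 (chr4:118437294-118437593, minus strand): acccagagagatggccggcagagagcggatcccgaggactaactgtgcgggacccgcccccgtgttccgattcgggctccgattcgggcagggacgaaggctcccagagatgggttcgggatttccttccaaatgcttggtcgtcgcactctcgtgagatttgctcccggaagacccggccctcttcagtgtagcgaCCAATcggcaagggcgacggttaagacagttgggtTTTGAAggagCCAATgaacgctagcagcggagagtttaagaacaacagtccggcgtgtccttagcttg
Top2a (chr11:99024140-99024439, minus strand): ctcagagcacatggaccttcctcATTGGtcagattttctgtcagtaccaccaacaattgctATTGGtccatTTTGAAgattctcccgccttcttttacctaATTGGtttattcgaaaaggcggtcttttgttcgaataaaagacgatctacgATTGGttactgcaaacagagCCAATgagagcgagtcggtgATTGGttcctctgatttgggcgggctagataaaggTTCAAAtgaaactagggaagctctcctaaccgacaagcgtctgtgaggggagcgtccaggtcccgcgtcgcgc
Cenpf (chr1:189688037-189688336, minus strand): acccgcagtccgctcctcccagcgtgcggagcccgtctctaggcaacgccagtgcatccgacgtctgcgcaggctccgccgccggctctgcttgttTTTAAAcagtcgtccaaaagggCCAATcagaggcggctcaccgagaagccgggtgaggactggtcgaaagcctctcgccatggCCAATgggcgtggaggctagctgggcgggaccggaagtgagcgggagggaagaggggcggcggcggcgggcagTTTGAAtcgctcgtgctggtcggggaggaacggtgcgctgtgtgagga
Ccnb1 carries TTTAAA starting 42 bases before the start, with 2 CCAAT letters upstream of it at 99 and 67. Cdk1 carries TTTGAA at 71 and 15 bases before the start, and 3 CCAAT matches at 208, 80 and 48. Cdc20 has 1 TTTGAA at 18 bases before the start, between CCAAT at 53 and 8. Top2a has 6 CCAAT matches and 2 TTTGAA matches, at 179 bases and, on the other strand, 23 bases before the start. Cenpf differs from these 4 in that 1 of its CHR cores, TTTGAA, begins 3 bases after the start. It also carries TTTAAA at 154 and CCAAT at 132 and 71 bases before the start.

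UMI counts (unique molecules) were summed per mouse and gate into 16 sums, and levels are given as CPM, the UMIs of a gene scaled by all UMIs of that sum. Of 4029 barcodes with 1 hashtag, 1993 cells were kept (those with 1000 UMIs or more, 500 genes or more, and a mitochondrial share below 20%), and the 2 pools shared 1 barcode. The 72 h clones gave 40 to 326 cells per mouse, 72 h control cells 77 to 261, 48 h clones 4 to 83 and 48 h control cells 74 to 218, with 77566 to 6370450 UMIs per sum. The 48 h clones stand apart. Mice 1, 2 and 4 gave 4, 15 and 8 cells, and the 83 cells of mouse 3 had a median of 1841 UMIs, with 48.6% of hashtag counts on the called hashtag, against medians of 74.1% to 95.8% in the other 15 sums. A single UMI is worth 12.9 CPM in the 48 h clones of mouse 1 and 0.157 CPM in the 72 h clones of mouse 8. Median fold changes that rest on 48 h clones are therefore given with and without mouse 3. Markers of other sorted-out cells were rare: all 8 immune markers were detected, with a summed level of 0 to 12.05 CPM in 72 h clones, 1.54 to 46.2 in 72 h control cells, 0 to 16.4 in 48 h clones and 0.595 to 9.51 in 48 h control cells. Of 5 endothelial markers 3 were detected, with 184 UMIs in total and 0 to 16.7 CPM per sum, while Cdh5 and Kdr were at 0. Of 6 stromal markers 3 were detected (6 UMIs), and Col1a1, Col3a1 and Lum were at 0. Of 4 erythroid markers 2 were detected (3 UMIs), and Hbb-bt and Hba-a1 were at 0. The part of such cells in the results was not tested.

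Cells were clustered with the 34 genes left out of the variable genes, and clusters were called "X-like" from marker lists. Because other genes of the cycle took part in the clustering, levels by cluster are descriptions without a test. The 34 genes were concentrated in few cells. The 585 cells of the dividing clusters (29.4% of 1993) held 78.3% of the UMIs of the 34 genes. After each cell was thinned to 2000 UMIs, which left out 105 shallower cells, the 189 cells with most UMIs of these genes held 53.5% of them. Of these 189 cells, 171 were in dividing clusters, 10 were secretory progenitor-like, 1 was stem-like and 1 was goblet-like. In 756 of 1888 thinned cells (40%) none of the 34 genes had a UMI, while 60 of the 1993 unthinned cells held UMIs of all 34.

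Summed over the 34 genes, 3 clusters stood far above the rest. The cluster led by the histone gene Hist1h1b (210 dividing cells without a lineage name) reached 8644 CPM, the dividing secretory progenitor-like cluster (35 cells) 8948 CPM, and a dividing stem-like cluster led by Nek2, a centrosome kinase of mitosis (29 cells), 9608 CPM. A second dividing cluster without lineage, led by Ulk4 (210 cells), had 2623 CPM. It held 251 of the 362 UMIs of immune markers, and without its 2 cells with at least 2 such UMIs it had 2632 CPM. Another dividing stem-like cluster led by Cdc6, which licenses replication origins (101 cells), had only 1685 CPM, whereas its summed level of 24 genes of G1/S was the highest of all clusters at 3607 CPM. The stem-like clusters not named as dividing had 952 CPM (led by Ifitm3, 237 cells) and 517 CPM (led by Edn1, 232 cells). Secretory progenitor-like cells (218) had 1253 CPM. Differentiated cells were lowest, with 229 CPM in enterocyte-like cells (176), 152 CPM in goblet-like cells (260), 121 CPM in Paneth-like cells (57), 267 CPM in tuft-like cells (48) and 461 CPM in enteroendocrine-like cells (34). The last value rests on the 5 cells of mouse 1, and without them it was 171 CPM (29 cells). An unnamed cluster led by the gasdermin gene Gsdmc4 (106 cells, no lineage list raised) had 2271 CPM with a G1/S level of only 444 CPM.

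**Figure D1:**
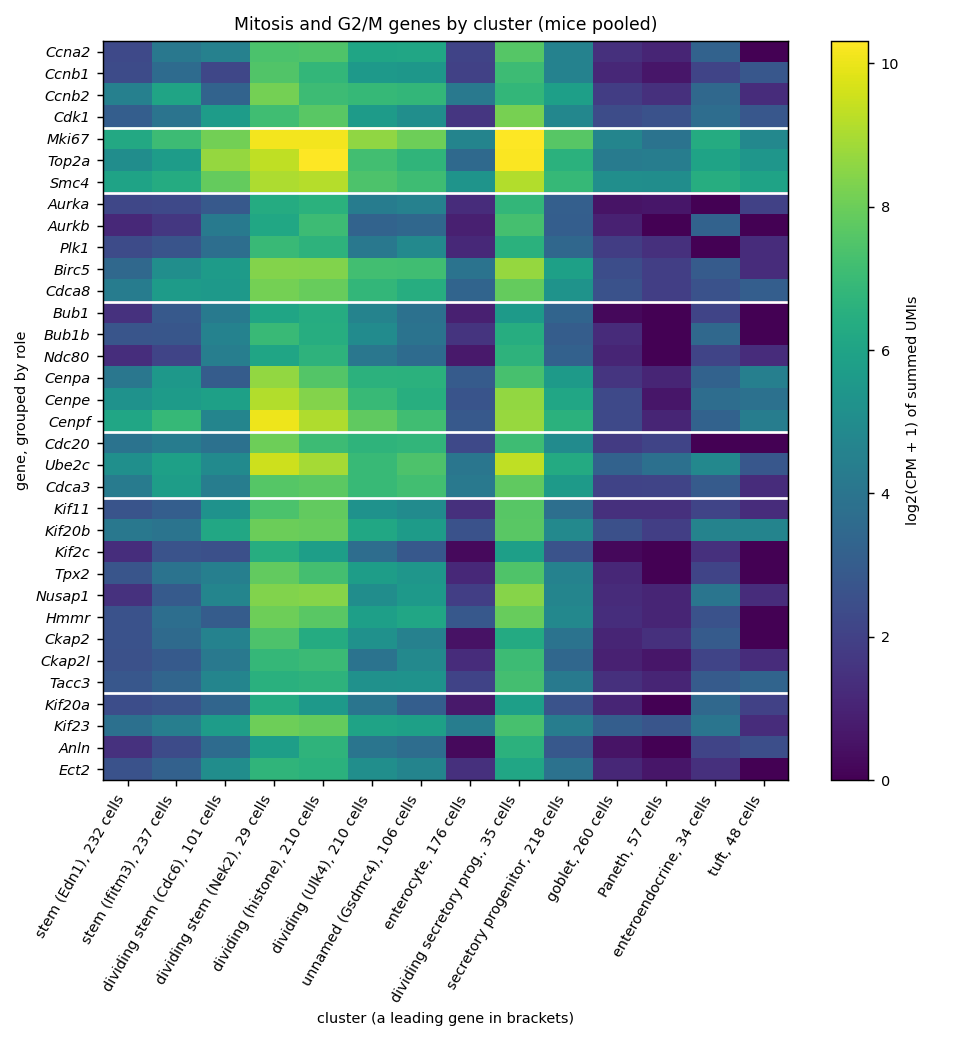
Level of each of the 34 genes (rows, grouped by role, groups parted by white lines) by cluster (columns, with cell numbers), as log2(CPM + 1) of UMIs summed over mice. An unnamed cluster of 40 cells is not drawn. The columns of the Nek2-led, Hist1h1b-led ("histone") and dividing secretory progenitor-like clusters are bright throughout, and the enterocyte, goblet and Paneth columns are dark.

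The order held over mice. Over the mice with at least 10 cells in a cluster, clones and control cells together, the sum of the 34 genes was 6323 CPM at the lowest, 9174 at the median and 10696 at the highest in the Hist1h1b-led cluster (8 mice). Secretory progenitor-like cells ranged over 700, 1133 and 2286 CPM (8 mice), stem-like cells of both clusters over 394, 673 and 950 CPM (8 mice), enterocyte-like cells over 135, 229 and 415 CPM (6 mice), and goblet-like cells over 102, 143 and 177 CPM (8 mice). The Hist1h1b-led range thus lies above all of the others, and the goblet-like range lies below the stem-like one without overlap. The ranges of secretory progenitor-like and stem-like cells overlap, and so do those of enterocyte-like and goblet-like cells. Compared within a mouse, secretory progenitor-like cells were above stem-like cells in all 8 mice (closest in mouse 5, 957 and 804 CPM). Enterocyte-like cells were above goblet-like cells in all 6 mice (closest in mouse 7, 135 and 119 CPM). Each of the Paneth-like, tuft-like and enteroendocrine-like classes had 10 cells in only 1 mouse, and the Nek2-led cluster in none, so these have no spread over mice. The goblet-like median depended on the clustering, at 306.9 to 893 CPM when the resolution was changed and 544 CPM without the cell cycle lists among the variable genes.

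**Figure D2:**
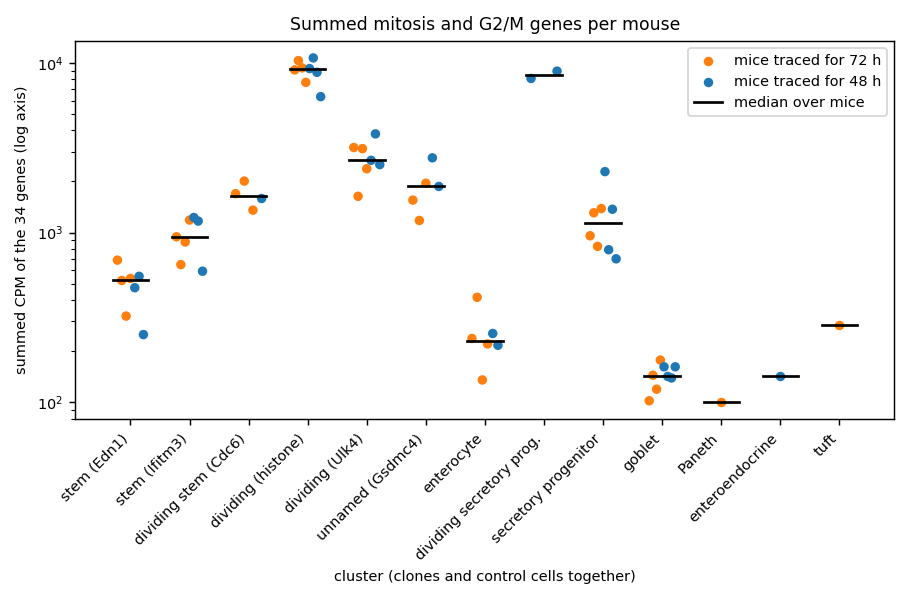
Summed CPM of the 34 genes (log axis) per mouse with at least 10 cells in the cluster, clones and control cells together. Orange points are mice traced for 72 h, blue points mice traced for 48 h, and lines are medians over mice. An unnamed cluster of 40 cells is not drawn, nor is the Nek2-led cluster, which had 10 cells in no mouse. The points of the Hist1h1b-led cluster ("histone") lie between 6323 and 10696 CPM, and those of goblet-like cells between 102 and 177 CPM.

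Counted cell by cell at 2000 UMIs, at least 3 of the 34 genes were detected in 198 of 200 cells of the Hist1h1b-led cluster (99.0%), in 35 of 35 dividing secretory progenitor-like cells, in 56.4% of the Ulk4-led cluster and in 45.7% of the Cdc6-led cluster. The share was 14.1% in stem-like cells (62 of 439, Wilson 95% interval 11.2% to 17.7%) and 24.9% in secretory progenitor-like cells (53 of 213, 19.6% to 31.1%). It was 3.53% in enterocyte-like cells (6 of 170), 0.389% in goblet-like cells (1 of 257) and 0 of 57 in Paneth-like cells, where a true share as high as 5.26% would go unseen. Goblet-like cells are known as post-mitotic and stand here as the comparison for free RNA, which was not itself measured. Their median depth was 26653.5 UMIs, against 16290 in stem-like and 24252 in secretory progenitor-like cells. Without thinning the share was 41.2% in goblet-like and 65.2% in stem-like cells. Those 62 stem-like cells held 59.5% of the thinned UMIs of the 34 genes in their class, and the 53 secretory progenitor-like cells held 82.9%. Pooled levels of both classes thus rest largely on a minority of their cells. Intervals and limits cover counting error only.

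Among the cyclins and their kinase, Cdk1 (the kinase that drives mitotic entry) had 142 CPM in the Nek2-led, 205 in the Hist1h1b-led and 289 in the dividing secretory progenitor-like cluster. It had 51.6 CPM in the Cdc6-led cluster, 14.5 and 7.43 in the Ifitm3-led and Edn1-led stem-like clusters, 26.0 in secretory progenitor-like, 4.33 in goblet-like and 2.14 in enterocyte-like cells. Cdk1 thus followed the dividing clusters, the Cdc6-led one included. Ccnb1, a B-type cyclin that partners Cdk1, had 184, 112 and 134 CPM in the Nek2-led, Hist1h1b-led and dividing secretory progenitor-like clusters but only 3.52 CPM (6 UMIs) in the Cdc6-led cluster, below the 11.2 CPM of the Ifitm3-led stem-like cells. Ccnb2, the other B-type cyclin, had 281, 134 and 111 CPM in the same 3 clusters, and it too was lower in the Cdc6-led than in the Ifitm3-led cluster, with 8.80 and 64.6 CPM. Ccna2, the cyclin of S phase and G2, had 169, 176 and 190 CPM in the 3 high clusters and 22.3 CPM in the Cdc6-led cluster, against 16.4 in the Ifitm3-led one.

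Of the chromosome structure genes, Top2a, the topoisomerase that untangles sister chromatids, had 1260 CPM in the Hist1h1b-led, 1225 in the dividing secretory progenitor-like and 644 CPM in the Nek2-led cluster. It was already at 406 CPM in the Cdc6-led cluster, against 50.6 and 32.0 CPM in the Ifitm3-led and Edn1-led stem-like clusters. Mki67, the coat protein of mitotic chromosomes and the usual marker of proliferation, had 1109 to 1271 CPM in the 3 high clusters, 276 CPM in the Cdc6-led cluster, 135 and 73.0 CPM in the 2 stem-like clusters and 195 CPM in secretory progenitor-like cells. Its level was 25.2 CPM in goblet-like and 24.0 CPM in enterocyte-like cells. Smc4, a condensin subunit, varied least between the clusters: it had 522 to 576 CPM in the 3 high clusters, 233 CPM in the Cdc6-led cluster, 80.2 and 62.8 CPM in the stem-like clusters, and 33.1 and 39.6 CPM in goblet-like and enterocyte-like cells. A UMI of Mki67 was found in 29.6% of goblet-like cells and 36.2% of Edn1-led stem-like cells, at median depths of 26653.5 and 17018.5 UMIs, so the presence of 1 such UMI does not mark a dividing cell here.

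The mitotic kinases and the passenger complex held 5 genes. Aurkb, the kinase of the chromosomal passenger complex, had 135 CPM in the Hist1h1b-led, 153 in the dividing secretory progenitor-like and 69.2 in the Nek2-led cluster, 17.6 in the Cdc6-led cluster, and 2.19 and 1.28 CPM in the stem-like clusters (8 and 5 UMIs). No Aurkb UMI was counted in the Paneth-like and tuft-like cells, where a count of 0 allows up to 1.68 and 4.49 CPM. Plk1, the Polo kinase of mitotic entry and cytokinesis, had 125, 99.9 and 95.7 CPM in the Nek2-led, Hist1h1b-led and dividing secretory progenitor-like clusters and 1.28 to 5.47 CPM in enterocyte-like, goblet-like and both stem-like clusters. Aurka, the centrosomal Aurora kinase, had 81.0 to 113 CPM in the 3 high clusters and 6.45 CPM in the Cdc6-led one. Birc5 (survivin) and Cdca8 (borealin), which bind Aurkb in the passenger complex, had 327 to 412 and 231 to 283 CPM in the 3 high clusters; Birc5 had 49.9 CPM in the Cdc6-led cluster and 33.7 in Ifitm3-led stem-like cells, and Cdca8 46.9 and 49.5 CPM.

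In the kinetochore and checkpoint group, Cenpf, a kinetochore protein that builds up in G2, had 1057 CPM in the Nek2-led, 539 in the Hist1h1b-led and 416 in the dividing secretory progenitor-like cluster, but only 25.2 CPM in the Cdc6-led cluster against 120 and 68.4 CPM in the 2 stem-like clusters. Cenpa, the histone variant of the centromere, followed with 396, 186, 158 and 7.04 CPM in the same 4 clusters and 44.1 and 15.9 CPM in the stem-like ones. As levels pooled over cells, both genes were therefore lower in the Cdc6-led dividing cluster than in stem-like cells outside the dividing clusters. Cenpe, the kinetochore motor, had 563.5, 338.5, 396 and 56.9 CPM in the same 4 clusters and 50.1 CPM in Ifitm3-led cells. The checkpoint kinases Bub1 and Bub1b had 47.9 to 82.1 and 84.0 to 126 CPM in the 3 high clusters, and Ndc80, which binds microtubules at the kinetochore, 65.0 to 101 CPM. These 3 genes were higher in the Cdc6-led cluster, at 17.6, 22.9 and 20.5 CPM, than in the Ifitm3-led cluster, at 6.30, 5.75 and 3.28 CPM.

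Cdc20, which activates the anaphase-promoting complex, had 265 CPM in the Nek2-led cluster, 134 in the Hist1h1b-led and 137 in the dividing secretory progenitor-like cluster, and 109 and 105 CPM in the Gsdmc4-led and Ulk4-led clusters. The Cdc6-led cluster had 13.5 CPM and the stem-like clusters 19.2 and 14.1 CPM. No Cdc20 UMI was found in enteroendocrine-like or tuft-like cells, which allows up to 5.04 and 4.49 CPM. Ube2c, the ubiquitin-conjugating enzyme that works with the complex, had 730, 491, 639 and 29.9 CPM in the Nek2-led, Hist1h1b-led, dividing secretory progenitor-like and Cdc6-led clusters, and 57.8 CPM in Ifitm3-led cells. Cdca3, known as a trigger of mitotic entry, had 191 to 218 CPM in the 3 high clusters and 147 CPM in the Gsdmc4-led cluster, against 19.9 CPM in the Cdc6-led cluster.

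The 9 spindle genes spread over the same range. Kif11, the motor that pushes spindle poles apart, had 166 to 227 CPM in the 3 high clusters, 37.5 in the Cdc6-led cluster and 7.39 and 5.38 CPM in the stem-like clusters. Nusap1, which bundles spindle microtubules, had 328 to 350 CPM in the 3 high clusters and 1.39 and 2.78 CPM in goblet-like and enterocyte-like cells. Tpx2, the activator of Aurka, had 150 to 230 CPM, the spindle assembly factor Hmmr 202 to 262, the motor Kif20b 204 to 251, the microtubule-associated Ckap2 and Ckap2l 78.0 to 174 and 115 to 132, the spindle-stabilising Tacc3 93.7 to 149 and the microtubule-depolymerising motor Kif2c 54.2 to 85.2 CPM in the 3 high clusters. Of these, Kif20b had 71.0 CPM in the Cdc6-led cluster, and the others had 4.69 to 24.6 CPM there. The cytokinesis genes were Kif23, a motor of the central spindle (157 to 261 CPM in the 3 high clusters), Ect2, which activates RhoA at the cleavage site (68.7 to 108), Anln, the scaffold of the contractile ring (54.3 to 103), and the motor Kif20a (45.04 to 79.9). Anln and Kif20a were at 0.21 and 0.64 CPM in enterocyte-like cells, and Anln at 0.46 CPM in goblet-like cells.

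The genes did not share 1 order over the dividing clusters. Relative to Ifitm3-led stem-like cells, 24 of the 34 genes were higher in the Cdc6-led cluster and 10 were lower. In all 4 mice that could be compared (3, 5, 7 and 8), 17 genes were higher in the Cdc6-led cluster, Top2a (8.03-fold with mice pooled), Aurkb (8.04-fold), Ndc80 (6.25-fold), Kif11 (5.08-fold) and Kif20b (4.89-fold) among them. In all 4 mice Ccnb1, Ccnb2, Cenpa, Cenpf, Cdc20 and Cdca3 were lower, with pooled ratios of 0.14 (Ccnb2) to 0.70 (Cdc20). Relative to the Hist1h1b-led cluster, 19 genes were higher in the Nek2-led cluster and 15 were lower. An order of the clusters in time was not tested. In all 3 mice with at least 5 cells in both (5, 7 and 8), 11 genes were higher in the Nek2-led cluster, among them Ckap2 (2.18-fold), Cenpa (2.13-fold), Ccnb2 (2.09-fold), Cdc20 (1.98-fold) and Cenpf (1.96-fold). In the same 3 mice Top2a (0.51), Aurkb (0.51), Anln (0.53), Ndc80 (0.65), Kif11 (0.73) and Bub1 (0.79) were lower. Top2a, Aurkb, Ndc80 and Kif11 were thus above the Ifitm3-led level in the Cdc6-led cluster and lower in the Nek2-led than in the Hist1h1b-led cluster, whereas Ccnb2, Cenpa, Cenpf and Cdc20 were low in the Cdc6-led cluster and highest in the Nek2-led one. Over all clusters 18 genes peaked in the Nek2-led, 11 in the dividing secretory progenitor-like and 5 in the Hist1h1b-led cluster. In the Cdc6-led cluster the genes stood at 3.13% (Ccnb1) to 40.6% (Smc4) of their level in the Hist1h1b-led cluster.

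**Figure D3:**
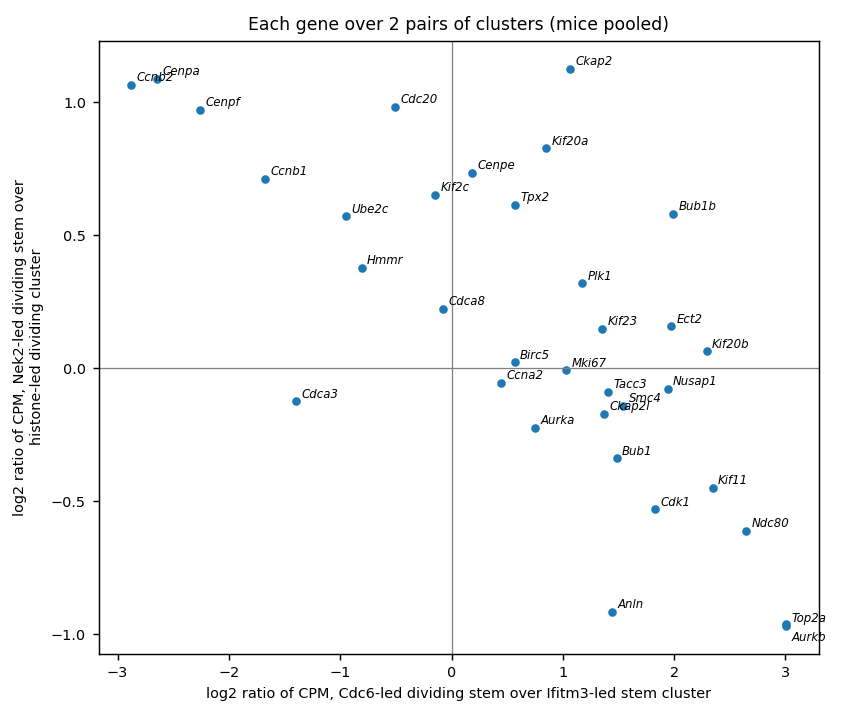
Each point is 1 of the 34 genes; the horizontal axis gives the log2 ratio of CPM in the Cdc6-led dividing stem-like over the Ifitm3-led stem-like cluster, the vertical axis the log2 ratio in the Nek2-led dividing stem-like over the Hist1h1b-led ("histone") dividing cluster, with mice pooled. Top2a and Aurkb lie at the lower right, and Ccnb2, Cenpa, Cenpf and Ccnb1 at the upper left.

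Within single dividing cells the genes varied together only in part. In 541 dividing cells thinned to 4000 UMIs, the correlation of a gene with the sum of the other 33 was 0.22 (Kif20a) to 0.68 (Mki67), with a median of 0.40. The sum of the 34 genes went with the sum of histone genes (r = 0.60) and against the sum of the G1/S genes (r = -0.33). Gene by gene, the correlation with the G1/S sum ran from -0.51 for Cenpf to 0.01 for Aurkb, and that of Top2a was 0.00. Top2a and Mki67 were correlated at 0.55 and Top2a and Cdc20 at 0.03. These are descriptions over cells that share libraries, and counts of 1 or 2 UMIs per gene and cell hold the values down.

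Every one of the 34 genes was lower in goblet-like than in secretory progenitor-like cells. Dividing secretory progenitor-like cells reached a median sum over mice of 8516.5 CPM (8093.8 and 8939.3 CPM in the 2 mice with 10 such cells), and 23 of the 35 were 48 h control cells; the 72 h clones, 72 h control cells and 48 h clones gave only 6, 4 and 2 such cells. The unnamed Gsdmc4-led cluster had Ccnb1, Ccnb2, Cenpa and Cdc20 at 43.3, 114, 94.6 and 109 CPM, which was 12.3, 12.9, 13.4 and 8.07 times their level in the Cdc6-led cluster, while Top2a was at 0.26 times. In enterocyte-like cells Kif23 (19.5 CPM) and Cdca3 (17.1 CPM) exceeded the 7.58 and 3.25 CPM of goblet-like cells.

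In the dividing clusters together, the 34 genes had a sum of 6809 CPM in the 224 cells with an Lgr5 UMI and 5350 CPM in the 361 cells without one. The cells with Lgr5 were also deeper, with a median of 23097.5 UMIs against 13553, and 27 of the 29 cells of the Nek2-led cluster were among them. Within clusters the values were 9211 CPM with and 8094 CPM without an Lgr5 UMI in the Hist1h1b-led cluster and 2782 and 2576 CPM in the Ulk4-led cluster, but 1598 and 1872 CPM in the Cdc6-led cluster, where the direction was the opposite. The part of depth and of cluster makeup was not tested.

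Some other genes followed the 34 closely. Over 28 sums per cluster and gate, which share libraries, the genes with the highest Pearson correlation to the summed 34, on log2(CPM + 1) and among 6110 genes with at least 20 CPM on average, were Hmgb2 (0.98), Cks2 (0.96), Lmnb1 (0.95), Spc24 (0.95), Dlgap5 (0.95), Lsm2 (0.94), Cep55 (0.93), Ncapd2 (0.93), Ube2s (0.92) and Kif4 (0.92). Hmgb2, Cks2, Spc24, Dlgap5 and Kif4 belong to the list of 37 other G2/M genes. Among the 34 genes themselves the correlation with the sum of the others ranged from 0.80 for Ccnb2 to 0.97 for Mki67.

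The next question was whether traced cells express the genes at another level than control cells of the same mice. At 72 h they did not differ detectably. The sum of the 34 genes was 2786, 1277, 2483 and 2484 CPM in the clones of mice 5, 6, 7 and 8, against 1804, 1936, 2916 and 1489 CPM in control cells of the same mice. The groups overlap, with means of 2258 ± 669 and 2036 ± 616 CPM (SD, n = 4 each). Clones were above control cells in mice 5 and 8 and below them in mice 6 and 7. Within pool 1 the 72 h clones (mice 7 and 8) were both above the control cells (mice 5 and 6), whereas in pool 2 clones (mice 5 and 6) and control cells (mice 7 and 8) overlapped. The share of dividing cells was 31.0% ± 6.49 in clones and 24.4% ± 4.45 in control cells (SD, n = 4 each), and in such sums more dividing cells and more transcript per cell cannot be told apart.

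Gene by gene at 72 h, Mki67 had 370, 168, 354 and 333 CPM in the clones of mice 5 to 8, against 253, 232, 406 and 197 CPM in control cells. Top2a had 267, 152, 277 and 318 CPM in clones, against 192, 182, 326 and 182 CPM in control cells. Cenpf had 237, 124, 232 and 183 CPM in clones, against 131, 171, 187 and 89.9 CPM in control cells. In each of these genes mouse 6 was the lowest clone sum and mouse 7 the highest control sum, and the groups overlapped. Ccnb1 averaged 31.4 ± 8.86 CPM in clones and 29.0 ± 11.3 in control cells, Cdk1 47.0 ± 15.2 and 43.0 ± 14.6, and Cdc20 48.4 ± 11.7 and 43.1 ± 9.22 (SD, n = 4 each). Plk1 averaged 21.9 ± 7.33 CPM in clones and 22.2 ± 7.45 in control cells, and Aurkb 22.3 ± 8.37 and 22.1 ± 10.6. Smc4 averaged 177 ± 39.6 CPM in clones and 156 ± 30.6 in control cells, Ube2c 133 ± 29.5 and 126 ± 46.5, and Cenpe 103 ± 41.8 and 92.7 ± 32.3. All of these differences were smaller than the spread between mice.

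By edgeR over 10606 genes (quasi-likelihood F-test, two-sided, Benjamini-Hochberg over all genes, called at an adjusted p under 0.05), 0 of the 34 genes were called at 72 h; the background was 0% of all genes called, with 0 of the 34 and 842 of all genes at an unadjusted p under 0.05. Their log2 fold changes, clones over control, were positive in 30 of 34, with a median of 0.15 against 0.01 for all genes. The lowest adjusted p by edgeR was 0.753, for Kif2c, whose fold change was 0.43 ± 0.35 (log2, SE). With mouse as a block 198 genes (1.87%) and by DESeq2 8 genes (0.0754%) were called, again with 0 of the 34 among them. Markers of cell types differed between the gates at 72 h in the blocked fit. Without the block, edgeR called 0 genes of each list (lowest adjusted p 0.313, in the stem and enterocyte lists). The blocked fit called 0 of 10 goblet and 0 of 10 secretory progenitor markers. The summed level of the stem list (12 of 12 detected) was 3743 to 6617 CPM in clones and 1693 to 3257 CPM in control cells, and in the blocked fit 10 of its 11 tested genes were called higher (0.745% of all genes higher), while 7 of 10 Paneth, 8 of 10 enteroendocrine, 6 of 9 tuft and 6 of 11 enterocyte markers were called lower (1.12% of all genes lower). Their part in the levels of the 34 genes was not tested. Without mouse 5 the median was -0.33, so its direction rests on that mouse.

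At 48 h the clones of 3 of the 4 mice were low. The sum of the 34 genes was 284, 1598, 2633 and 442 CPM in the clones of mice 1 to 4, against 3194, 3033, 2511 and 1215 CPM in control cells, with means of 1239 ± 1099 and 2488 ± 897 CPM (SD, n = 4 each). Mice 1, 2 and 4 were lower in clones than in control cells, and mouse 3, whose clone cells stand apart, was slightly higher. These 3 clone sums rest on 22, 390 and 56 UMIs of the 34 genes. Within pool 1 the clone sums were 2633 and 442 CPM (mice 3 and 4) against 3194 and 3033 CPM in control cells (mice 1 and 2), and within pool 2 they were 284 and 1598 CPM (mice 1 and 2) against 2511 and 1215 CPM (mice 3 and 4). Dividing cells were 0%, 40%, 26.5% and 25.0% of the clone cells of mice 1 to 4 and 35.9%, 36.5%, 39.4% and 16.1% of the control cells; the clone shares rest on 0, 6, 22 and 2 dividing cells.

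Mki67 had 38.7, 147, 368 and 47.4 CPM in the 48 h clones of mice 1 to 4, against 413, 324, 354 and 181 CPM in control cells. Top2a had 12.9, 147, 335 and 23.7 CPM in clones, against 345, 346, 310 and 157 CPM in control cells. Ube2c had 12.9, 98.3, 157 and 23.7 CPM in clones, against 216, 223, 145 and 76.8 CPM in control cells. For Mki67 and Top2a the clones of mouse 3 lie within the control range, and the other 3 clone sums lie below every control sum. Ube2c of mouse 2 lies within the control range as well. Cenpf had 12.9, 98.3, 187 and 31.6 CPM in clones, against 190, 228, 135 and 62.0 CPM in control cells. Cenpe had 0, 107, 87.0 and 7.89 CPM in clones, against 128, 122, 106 and 48.2 CPM in control cells. Smc4 had 64.5, 143, 161 and 47.4 CPM in clones, against 229, 193, 183 and 93.9 CPM in control cells. In these 3 genes mice 2 and 3 overlapped control cells, and mouse 1 was among the lowest.

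The cyclin B and checkpoint-exit genes gave fewer counts at 48 h. Ccnb1 had 0, 45.1, 30.1 and 7.89 CPM in the clones of mice 1 to 4, against 57.3, 56.4, 34.3 and 17.5 CPM in control cells. Cdk1 had 12.9, 36.9, 70.3 and 23.7 CPM in clones, against 74.4, 60.5, 62.7 and 33.2 CPM in control cells. Cdc20 had 12.9, 24.6, 40.2 and 15.8 CPM in clones, against 79.7, 78.1, 53.2 and 23.3 CPM in control cells. Cdc20 overlapped through the control cells of mouse 4, the lowest control sum in each of these 3 genes. Plk1 had 12.9, 36.9, 46.8 and 7.89 CPM in clones, against 32.3, 38.1, 24.8 and 13.2 CPM in control cells. Aurkb had 0, 4.10, 36.8 and 0 CPM in clones, against 39.8, 27.2, 34.1 and 14.4 CPM in control cells. A count of 0 allows up to 38.7 CPM in the clones of mouse 1 and 23.7 CPM in those of mouse 4, so Aurkb at 0 cannot be placed below the control range of 14.4 to 39.8 CPM in either mouse. Plk1 alone of the 34 had a positive fold change at 48 h.

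**Figure D4:**
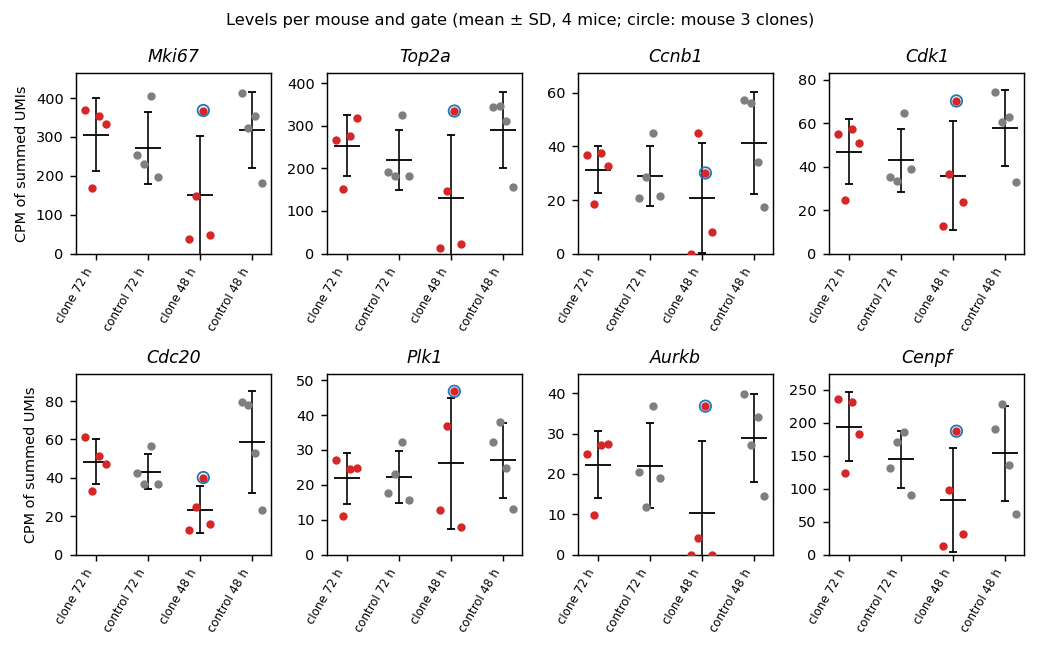
CPM of 8 genes in each of the 16 sums, 72 h clones and control cells left and 48 h clones and control cells right; red points are clones, grey points control cells, bars are mean ± SD over 4 mice, and the blue circle marks the clones of mouse 3. At 48 h the circled point lies among the control cells except for Plk1, where 46.8 CPM exceeds the highest control sum of 38.1 CPM. The 48 h clones of mice 1 and 4 lie low in each panel (Mki67, 38.7 and 47.4 CPM).

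In the edgeR fit 0 of the 34 genes were called at 48 h, and the background was 0% of 10606 genes, with 4 of the 34 and 1271 of all genes at an unadjusted p under 0.05. Fold changes were negative in 33 of 34 genes, with a median of -0.65 on the log2 scale against -0.07 for all genes. Tpx2 had the lowest at -1.67 ± 0.67 (log2, SE; edgeR adjusted p = 0.339), and Cdca3 the lowest adjusted p, 0.311, at -1.22 ± 0.46. Without mouse 3 the median was -1.43, still with 0 genes called (lowest adjusted p by edgeR 0.176). The call depended on the model. With mouse as a block and all 8 mice, 0 of the 34 were called (0.896% of all genes; lowest adjusted p by edgeR 0.115 for Cdca3), but leaving out mouse 3 called Top2a, Mki67 and Ube2c lower in clones (1.29% of all genes lower), at -1.98 ± 0.38, -1.77 ± 0.34 and -1.74 ± 0.41 (log2, SE; edgeR adjusted p = 0.0147, 0.0163 and 0.0372). Leaving out mouse 5, 6 or 7 in the blocked fit called 1, 2 and 1 of the 34 (Cdca3, Cdca3 with Mki67, and Mki67), where 0.806%, 1.38% and 1.06% of all genes were called lower. With no filter on low counts (19588 genes), 8 of the 34 were called lower, Cdc20, Cdca3, Kif11, Mki67, Nusap1, Top2a, Tpx2 and Ube2c, where 1.66% of all genes were called lower. DESeq2 called 0 of the 34 and 0.622% of all genes, and without mouse 3 it called Mki67, Top2a and Ube2c lower, at -1.78 ± 0.47, -1.96 ± 0.53 and -1.64 ± 0.55 (log2, SE; DESeq2 adjusted p = 0.0152, 0.0172 and 0.0483; 0.633% of all genes lower).

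Markers of cell types differed between the same sums. The goblet list (10 of 10 genes detected) summed to 529, 3216, 8258 and 42468 CPM in the 48 h clones of mice 1 to 4, against 44789, 43621, 28119.5 and 43753 CPM in control cells, so only the clones of mouse 4 lay within the control range. The enteroendocrine list (10 of 10) ranged over 0 to 465 CPM in clones and 228 to 1964 CPM in control cells, and the stem list (12 of 12) over 3222 to 7632 CPM in clones and 2111 to 2768 CPM in control cells without overlap. Median log2 fold changes at 48 h were -1.77 for the goblet, -2.28 for the enteroendocrine, -3.81 for the tuft, -1.48 for the secretory progenitor, 0.15 for the Paneth, 0.44 for the enterocyte and 0.96 for the stem list, with 0 called in each by edgeR. In the blocked fit 9 of 10 goblet, 5 of 10 enteroendocrine, 3 of 10 secretory progenitor, 2 of 9 tuft and 1 of 10 Paneth markers were called lower (0.764% of all genes lower) and 3 of 11 stem markers higher (0.132% higher). Without mouse 3 the medians were -1.64 for the goblet, -7.71 for the enteroendocrine, -4.43 for the tuft, -1.49 for the secretory progenitor, 0.19 for the Paneth, -1.57 for the enterocyte and 1.28 for the stem list. The part of this difference in cell makeup in the levels of the 34 genes was not tested.

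By role, the medians at 48 h were -1.11 for the anaphase-promoting complex group (3 genes), -0.94 for chromosome structure (3), -0.80 for spindle (9), -0.65 for kinetochore and checkpoint (6), -0.53 for kinases and passenger complex (5), -0.50 for cyclins and Cdk1 (4) and -0.39 for cytokinesis (4), all on the log2 scale. Without mouse 3 they lay between -2.03 (spindle) and -0.60 (cytokinesis). At 72 h the same groups lay between 0.05 and 0.25.

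Over both times, the mean of the 2 differences, 0 of the 34 genes were called by edgeR, with 0.00943% of all genes called and 1 of the 34 and 1781 of all genes at an unadjusted p under 0.05. The median was -0.25 against -0.04 for all genes, with 30 of 34 negative, and Cdca3 again had the lowest adjusted p by edgeR, 0.286 (-0.59 ± 0.27, log2, SE). Without mouse 3 the median was -0.69. With mouse as a block 4.50% of genes were called and 0 of the 34. Without mouse 3 that fit called Aurkb, Mki67, Top2a and Ube2c lower (4.85% of all genes lower), at -1.77 to -0.81 with edgeR adjusted p of 0.0154 to 0.0408. The call of Aurkb rests at 48 h on clones with 0, 1 and 0 UMIs of the gene (mice 1, 2 and 4). Without mouse 5 the blocked fit called Cdca3 at -0.88 (1.71% of all genes lower). With no filter 5 were called lower (Cdca3, Mki67, Top2a, Tpx2 and Ube2c), where 2.87% of all genes were. DESeq2 called 0 of the 34 and 2.55% of genes.

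Time after labelling was compared next. In clones, the 34 genes at 72 h over 48 h had a median log2 fold change of 0.70, against 0.07 for all genes, with 32 of 34 positive. EdgeR called 0 of the 34, on a background of 0%, with 6 of the 34 and 664 of all genes at an unadjusted p under 0.05, and DESeq2 called 0 of the 34 and 0.00943%. Cenpf averaged 194 ± 52.4 CPM in 72 h clones and 82.5 ± 78.9 in 48 h clones (SD, n = 4 each), a change of 1.09 ± 0.43 (log2, SE; edgeR adjusted p = 0.781). Tpx2 averaged 41.4 ± 14.2 and 9.30 ± 10.9 CPM, a change of 1.83 ± 0.66 with the same adjusted p. Without mouse 3 the median was 1.31, and with no filter Cenpf, Mki67, Nusap1, Top2a and Tpx2 were called higher at 72 h, where 0.465% of all genes were. DESeq2 without mouse 3 called Mki67 and Top2a higher at 72 h, at 1.85 ± 0.45 and 1.86 ± 0.50 (log2, SE; DESeq2 adjusted p = 0.0152 and 0.0487; 0.13% of all genes higher). In control cells 30 of 34 fold changes were negative, with a median of -0.21 against -0.01 for all genes; edgeR called 0 of the 34 (0.0849% of all genes, and 0 of the 34 and 575 of all genes at an unadjusted p under 0.05), DESeq2 0 (0.151%), and without mouse 5 the median was 0.00. The summed level was 1489 to 2916 CPM in 72 h control cells and 1215 to 3194 CPM in 48 h control cells, and the groups overlap.

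The change of the clone-control difference between the times was tested itself. It was positive in 33 of 34 genes, with a median of 0.86 against 0.08 for all genes, and edgeR called 0 of the 34 (background 0%; 3 of the 34 and 554 of all genes at an unadjusted p under 0.05). Tpx2 had an adjusted p of 0.948 by edgeR, the lowest of the 34. The blocked fit called 0 of the 34 and 0.0943% of genes, and DESeq2 0 of the 34 and 0.0189%. With no filter 7 were called higher (Cdc20, Cdca3, Cenpf, Mki67, Nusap1, Top2a and Tpx2), where 0.296% of genes were, and without mouse 3 the median was 1.55. These comparisons share sums, so their directions are not independent.

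**Figure D5:**
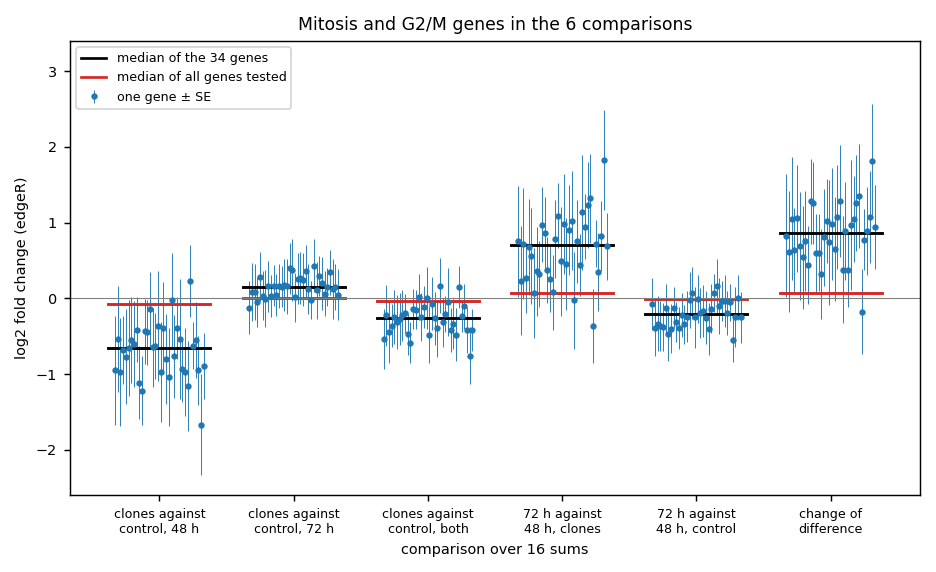
Log2 fold change of each of the 34 genes (point, with its SE) in the 6 comparisons over the 16 sums; black lines are the medians of the 34 genes and red lines those of all 10606 genes tested. At 48 h the black line lies at -0.65 and in the comparison of 72 h with 48 h in clones at 0.70.

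Sums within cell classes hold the class fixed, but a class still mixes clusters and cells in different states. In all dividing clusters together, the 34 genes summed to 7219, 4169, 5364 and 6081 CPM in the 72 h clones of mice 5 to 8, against 5582, 6064, 7398 and 5591 CPM in the control cells. The 48 h control cells of mice 1 to 4 had 6326, 7010, 5606 and 5745 CPM, and mouse 3, the only mouse with 10 dividing 48 h clone cells, had 5216 CPM in clones. The groups overlap, and clones were above control cells in mice 5 and 8 only. By edgeR (8267 genes, all 34 tested) 0 of the 34 were called at 72 h, with 0% of all genes called and 1 of the 34 and 425 of all genes at an unadjusted p under 0.05, and their log2 fold changes, clones over control, lay between -0.42 and 0.26 with a median of -0.04. The median was -0.35 without mouse 5 (32 of 34 negative), 0.15 without mouse 7 (27 positive) and 0.13 with clusters at resolution 0.6 (30 positive), so its direction turned. The blocked fit called 0.52% and DESeq2 0.0121% of genes, none of the 34 among them. For 72 h over 48 h in dividing control cells edgeR called 0 of the 34 and 0.0847% of genes (1 of the 34 and 840 of all genes at an unadjusted p under 0.05), and DESeq2 0 of the 34 and 0.145%. Kif23 had the lowest adjusted p by edgeR, 0.373, at 0.38 ± 0.15 (log2, SE). The median here was 0.05, and between -0.08 without mouse 7 and 0.15 without mouse 5.

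Stem-like cells had sums of 752, 432, 534 and 1027 CPM in the 72 h clones of mice 5 to 8, against 873, 655, 307.5 and 468 CPM in control cells. Clones were above control cells in mice 7 and 8 and below them in mice 5 and 6. In the same class the 48 h clones of mouse 3 had 1483 CPM, above all other stem-like sums, against 883 CPM in its control cells. Of the 34 genes 14 passed the filter on low counts in this class, and edgeR called 0 of them at 72 h (0% of 7100 genes; 1 of the 14 and 154 of all genes at an unadjusted p under 0.05), DESeq2 0 (0%) and the blocked fit 0 (0.0423%). Top2a had a fold change of 0.40 ± 0.31 and Mki67 of 0.25 ± 0.36 (log2, SE), and neither was called. The median over the 14 was 0.27, but -0.21 without mouse 8 and -0.27 with clusters at resolution 1.5. For 72 h over 48 h in stem-like control cells edgeR and DESeq2 called 0 of 14, with 0% of genes called by either and 0 of the 14 and 513 of all genes at an unadjusted p under 0.05 by edgeR, and the median was -0.39, but 0.03 without mouse 3 (7 of 14 positive) and -0.04 without mouse 8.

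Secretory progenitor-like control cells had sums of 1014, 1487 and 1932 CPM at 72 h (mice 5, 6 and 8), against 2286, 792, 1370 and 732 CPM at 48 h (mice 1 to 4), and the groups overlap. EdgeR called 0 of the 22 genes that passed the filter (0% of 6427 genes; 0 of the 22 and 310 of all genes at an unadjusted p under 0.05), and DESeq2 0 (0.0622%). The median of -0.04 was 0.64 without mouse 1 and -0.72 without mouse 8. Clones at 72 h gave sums in mice 5 and 8 only, 859 and 1057 CPM, against 1014 and 1932 CPM in their control cells. With fewer than the required 3 sums, the main fit did not test clones against control in this class. Fits without mouse 1, 2, 3, 4, 6 or 7 did, on the same 2 clone sums. Their medians were -0.69 to -0.62 (log2, clones over control), with 0 genes called. In goblet-like control cells only 2 of the 34 passed the filter; edgeR called 0 of them and 0.0188% of 5308 genes (0 of the 2 and 283 of all genes at an unadjusted p under 0.05), and DESeq2 0 and 0.0377%. No class had 3 sums of 48 h clones, so the comparison over both times could not be made within a class.

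By group, the thinned share of cells with at least 3 of the 34 genes was 33.1% in 72 h clones (203 of 613, Wilson 95% interval 29.5% to 36.9%), 25.4% in 72 h control cells (167 of 658, 22.2% to 28.8%), 40% in 48 h clones (24 of 60, 28.6% to 52.6%) and 34.3% in 48 h control cells (191 of 557, 30.5% to 38.3%). Mouse by mouse it was 32.9%, 15.4%, 33.3% and 35.4% in 72 h clones of mice 5 to 8, against 28.7%, 19.7%, 28.6% and 23.8% in control cells, so the groups overlap. Of the 24 cells counted among 48 h clones, 22 came from mouse 3 and 2 from mouse 2 of 10 cells, while mice 1 and 4 gave 0 of 4 and 0 of 8. Thinning left out 45 of the 83 clone cells of mouse 3. In goblet-like cells, the comparison for free RNA, the share was 0.389%.

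The 37 other G2/M genes, a list that holds among others Hmgb2, Cks2, Prc1 and Foxm1, had 0 genes called by edgeR in each of the 6 comparisons and 1 called higher over both times in the blocked fit. Their medians, clones over control, were 0.16 at 72 h and -0.58 at 48 h (-0.96 without mouse 3). The 24 G1/S genes, the replication licensing and nucleotide synthesis genes of S phase entry, had positive medians at both times, which were 0.40 at 72 h, 0.44 at 48 h and 0.54 over both times (0.65 and 0.55 without mouse 3), with 0 called by edgeR and 3 of 24 higher over both times in the blocked fit (lowest adjusted p 0.0277 by edgeR; 1.19% of all genes higher). Their summed level was 1028 ± 274 CPM in 72 h clones, 800 ± 180 in 72 h control cells, 1333 ± 361 in 48 h clones and 1007 ± 264 CPM in 48 h control cells (SD, n = 4 each).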

How the data were processed

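Deposited gene counts and hashtag antibody counts of 2 pools of cells were used. Per the submitters' processing notes the authors used Cell Ranger 6.1.2 and build mm10; the gene values are whole-number UMI counts, as the values of the deposited matrices show, and columns of unit other, deposited with them, hold only barcodes and gene identifiers. No authors' normalization was applied to these counts. Each hashtag marks a mouse and, with the pool, a gate, per the labels. The 34 genes and all lists were chosen with earlier results of these data known.

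Hashtags were called with HTODemux (Seurat 5.3.0, quantile 0.99); beside 4029 barcodes with 1 hashtag, 493 carried several hashtags and 930 none, and both were left out. No doublet caller was run, so doublets of cells with the same hashtag stay in. Cells were kept from 1000 UMIs and 500 genes upwards when mitochondrial UMIs stayed below 20%. Pools held 30278443 and 28050962 UMIs. Clustering used scanpy 1.11.5 (2000 variable genes without the 34, 30 components, 15 neighbours, Leiden resolution 1.0), and a name needs 3 markers among 50 leading genes and 25% of its list raised 1.5-fold; a dividing cluster takes a lineage name where 50% of that list is raised. Counts were summed per mouse and gate, in classes for at least 10 cells per sum and 3 sums per group, and tested in edgeR 4.0.16 (filterByExpr, TMM scaling, pool in the model) on all genes; limma 3.58.1 and DESeq2 1.42.0 ran under R 4.3.3. The tests were run on simulated sums with large changes, a small fixed spread and no mouse or pool effect. That check does not cover smaller changes or a wider spread between mice. Genes named in the comparisons are those called in any of the 6 comparisons, the 6 with the highest mean CPM, and Mki67, Top2a, Ccnb1, Cdk1, Cdc20, Plk1, Aurkb and Cenpf; others were chosen after their values were seen.

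Clone and control sums with the same hashtag were read as 1 animal, and a second fit had mouse as a block. The correlation of the residuals of such a pair of sums was 0.017 to 0.431 over the 8 mice. Alternatives were mitochondrial limits of 10% and 50%, a hashtag share of 70%, RLE scaling, DESeq2, no filter on low counts, the block, leaving out each mouse, other clusterings, and other thinning depths and gene minimums. The block with a mouse left out and DESeq2 without mouse 3 were added after the data were seen.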

Additional observations from a re-analysis of the deposited data

Results flagged for a closer look

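Among 52 groups of 4 sums checked, 4 held a sum far from the other 3, where chance gives about 1 in 20 groups. Top2a was high in the 72 h control cells of mouse 7 (326 CPM). Plk1 (11.1 CPM) and Aurkb (9.84 CPM) were low in the 72 h clones of mouse 6, and Aurkb was high in the 48 h clones of mouse 3 (36.8 CPM).

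Barcodes outside the filters also carried the 34 genes. Their summed level was 2423 CPM in barcodes with 20% to 50% mitochondrial UMIs, 2139 CPM at 50% or more, 2287 CPM in the 187 of 930 barcodes without a hashtag and 2331.5 CPM in the 236 of 493 with several hashtags that met the limits on UMIs, genes and mitochondrial share, against 2229 CPM in the cells kept. These barcodes entered no comparison, except those with 20% to 50% mitochondrial UMIs, which the alternative limit of 50% takes in.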

How the results depend on the processing

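With no filter on low counts, 8 of the 34 genes were called at 48 h (1.66% of all genes lower) and 5 over both times (2.87% lower). In the same fit 5 were called for 72 h over 48 h in clones (0.465% of all genes higher) and 7 for the change of the difference (0.296% higher). With the replicate block, leaving out each mouse in turn called 0 to 3 at 48 h and 0 to 4 over both times. The most were called without mouse 3, where 1.29% and 4.85% of all genes were lower. With all mice the block called 0. DESeq2 without mouse 3 called 3 at 48 h (0.633% of all genes lower) and 2 for time in clones (0.13% of all genes higher). The cause was not tested. Of 203 alternative counts of called genes 191 were as reported. Of 19 alternative levels 12 lay within the SD over mice of the reported median. Of 60 alternative cell shares 24 lay within the reported Wilson interval. A share changes with thinning depth and gene minimum by its definition. The median over the 34 genes ran from -1.43 to -0.38 at 48 h, from -0.33 to 0.50 at 72 h, from -0.69 to -0.10 over both times, from 0.46 to 1.31 for time in clones, from -0.49 to 0.00 in control cells and from 0.50 to 1.55 for the change when 1 mouse was left out.

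Class medians of the summed level moved with the clustering: dividing 4582 CPM at resolution 1.5, secretory progenitor-like 585 CPM with the 34 genes kept, goblet-like 544 CPM without cycle lists, 893 CPM at resolution 0.6 and 306.9 CPM at 1.5, enterocyte-like 447 CPM at 0.6. Thinned to 1000 UMIs the share of cells was 25.8% in 72 h clones, 18.6% in 72 h control cells, 22.7% in 48 h clones and 23.5% in 48 h control cells. At 4000 UMIs it was 43.0% in 72 h clones, 31.9% in 72 h control cells and 44.2% in 48 h control cells. With at least 2 genes it was 40.5%, 31.9%, 56.7% and 43.4% in 72 h clones, 72 h control cells, 48 h clones and 48 h control cells, and with at least 5 it was 25.6% in 72 h clones, 19.5% in 72 h control cells and 23.5% in 48 h control cells. Depth limits the 48 h clones most, where 1 UMI is worth 3.35 to 12.9 CPM.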
